A study of Mus musculus with 11 samples.

Results

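The SOCS and CISH genes encode a family of intracellular feedback inhibitors of cytokine signalling, and their transcripts were followed here in mouse marrow cells that carried mutant CSF3R with or without mutant CEBPA. The members were chosen by name (Cish and Socs1 to Socs7). All 8 were present among the 51912 genes of the count table, and all 8 passed the filter on low counts that left 15703 genes for testing.

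Lineage-negative bone marrow cells of C57BL/6 mice aged 6 to 12 weeks, with a tamoxifen-inducible Cre recombinase (ERT2-Cre) at the Rosa26 locus, were transduced with a pair of retroviral vectors in medium supplemented with IL-3, IL-6 and stem cell factor. One vector was expressed constitutively and the other was switched on by Cre when 4-hydroxytamoxifen was added. Marker-positive, lineage-negative cells were sorted and kept for 48 h in serum medium without added cytokines in the presence of 4-hydroxytamoxifen, and their RNA was then sequenced. In CSF3R-only (n = 4), mutant CSF3R (T618I, an activating mutation of the granulocyte colony-stimulating factor receptor) was constitutive and the inducible vector was empty. In CSF3R-first (n = 3), the same constitutive CSF3R was followed by induction of mutant CEBPA (V314VW, a mutation of the C-terminal part of a transcription factor needed for granulocyte formation). In CEBPA-first (n = 4), mutant CEBPA was constitutive and mutant CSF3R was induced. Every group therefore carried Cre, 4-hydroxytamoxifen and mutant CSF3R, and no group lacked the receptor mutation. Both transgenes were driven by viral vectors, and their levels need not match those of the endogenous genes. The labels do not say whether replicates came from separate mice or cultures, so p-values measure the spread between these samples, which may be technical.

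When a cytokine binds its receptor, JAK kinases attached to the receptor phosphorylate it, and STAT transcription factors recruited to the receptor are phosphorylated in turn, enter the nucleus and switch on target genes. Cish, Socs1, Socs2 and Socs3 are classical STAT targets whose products feed back on the pathway: each has an SH2 domain that binds phosphotyrosine and a SOCS box that recruits an elongin and cullin ubiquitin ligase. SOCS3 binds the granulocyte colony-stimulating factor receptor and is the main brake on STAT3 signalling downstream of it, CISH and SOCS2 act mostly on receptors that use STAT5, and SOCS1 inhibits JAK kinases directly and restrains interferon signalling.

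The genes are scattered over the genome (GRCm38 coordinates): Cish at chr9:107296026-107302784 (plus strand), Socs1 at chr16:10782240-10785536 (minus), Socs2 at chr10:95385362-95417180 (minus), Socs3 at chr11:117966079-117970047 (minus), Socs4 at chr14:47276931-47296102 (plus), Socs5 at chr17:87107679-87137839 (plus) and Socs7 at chr11:97362551-97398542 (plus). Counts for Cish carry one uncertainty, since 11.5% of its exon bases overlap Gm17040 and Gm17041 on the opposite strand and whether counting used strand is not given in the sources used here. Those genes held 1 to 7 counts and 0 counts per library. The longest Socs2 transcript is near-identical (97% identity or more over at least 100 bases) to Gm9847 over 10.7% of its length, and Gm9847 held 0 to 13 counts per library.

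Because feedback inhibitors are known as targets of STAT factors, the 250 bases before the RefSeq gene start were searched on both strands for letters bound by STAT factors (TTCNNNGAA, and TTC and GAA spaced by 4 bases), by C/EBP factors (TTGCNNAA) and, chosen after the Socs1 sequence had been read, by interferon-regulated factors (GAAA followed after 2 bases by GAAA). RefSeq promoter sequences (GRCm38.p6) were matched for 4 of the 8 genes (Cish, Socs1, Socs3 and Socs4). The Socs1 promoter is shown whole, and of Socs3 only the 30 bases around its match. Both lie on the minus strand and are written 5′ to 3′ toward the gene, with the matched letters in capitals.
Socs1, chr16:10785537-10785786: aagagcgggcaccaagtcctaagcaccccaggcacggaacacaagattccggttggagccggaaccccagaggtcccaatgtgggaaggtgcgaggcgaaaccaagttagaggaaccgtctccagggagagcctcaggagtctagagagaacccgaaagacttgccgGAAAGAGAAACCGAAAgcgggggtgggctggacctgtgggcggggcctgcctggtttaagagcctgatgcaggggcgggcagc
Socs3, chr11:117969501-117969530: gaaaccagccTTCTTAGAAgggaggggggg
The Socs3 stretch holds TTCTTAGAA, 145 to 154 bases before the RefSeq start of the gene, a match to TTCNNNGAA, which occurs in 7.04% of the 32544 promoters of the table. The Socs1 sequence holds 2 overlapping pairs of GAAA spaced by 2 bases (GAAAGAGAAA and GAAACCGAAA), letters found in 2.98% of promoters. The GENCODE model of Socs3 starts upstream of the RefSeq one, so the Socs3 match lies inside the gene span given above and 77 bases of the window searched are annotated exon. Neither Socs1 nor Socs3 held the C/EBP letters, which 9.58% of promoters hold, or the STAT letters with the wider spacing, which 5.89% hold. The windows of Cish and Socs4 held none of the motifs searched, and the Cish window lies within an annotated exon of the gene. These matches describe letters in a window and say nothing about binding in these cells.

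Sequencing depth was high and similar, with 47905747 to 72268346 counts per library. The mouse genes matching the transgenes were read as a check of the labels, although the vectors encode human proteins and only part of their reads may align to mouse genes. Normalized expression is given in CPM, the count of a gene scaled to the library's total after TMM correction. Mean Cebpa expression was 87.2 CPM in CSF3R-only, rose to 131 CPM in CSF3R-first and to 167 CPM in CEBPA-first (edgeR adjusted p = 0.00012 and 1.2e-07 against CSF3R-only). Csf3r, in contrast, stood at 846, 516 and 154 CPM across these groups. For the marker counts that follow, 68.7% of all genes tested did not overlap between CEBPA-first and CSF3R-only. Progenitor markers were present and did not share a direction. Of 10, 4 were higher in CEBPA-first than in every CSF3R-only sample, with means in these outer groups of 0.170 and 15.4 CPM for Mecom, 2.92 and 14.0 for Hlf, 108 and 331 for Myb and 2.34 and 6.60 for Flt3. The 4 lower ones were Cd34 (88.8 and 17.9 CPM), Ly6a (402 and 63.2), Meis1 (18.8 and 6.40) and Slamf1 (10.2 and 1.49), and Kit (27.6 and 34.8) and Gata2 (216 and 169) overlapped. Markers of maturing neutrophils (12 genes, among them Ltf, Camp, Ngp and S100a8) summed to 26900 to 33200 CPM in CSF3R-only. Their sum was 14700 to 25600 CPM in CSF3R-first and 6500 to 8650 CPM in CEBPA-first. In CEBPA-first all 12 were lower than in every CSF3R-only sample, where 68.7% of all genes tested did not overlap in either direction. Monocyte and macrophage markers (10 genes) summed to 2760 to 3510, 1430 to 2530 and 648 to 988 CPM, megakaryocyte markers (6 genes) to 877 to 1190, 339 to 524 and 112 to 155 CPM, and erythroid markers (8 genes) to 239 to 348, 104 to 330 and 25.6 to 39.5 CPM. Mast cell and basophil markers (8 genes) summed to 1510 to 2350, 971 to 1170 and 1090 to 1460 CPM, and the stem and progenitor markers to 702 to 1040, 565 to 687 and 615 to 701 CPM, a sum to which Ly6a and Gata2 gave most in CSF3R-only. Among the mast cell and basophil markers 5 lay wholly below their CSF3R-only values in CEBPA-first and 2 lay wholly above them, Fcer1a (117 and 260 CPM) and Ms4a2 (89.6 and 122 CPM). B cell markers (5 genes) summed to 3.59 to 4.51, 3.26 to 4.23 and 5.78 to 6.80 CPM, and the 8 T cell and NK cell markers summed to 76.6 to 134, 44.3 to 73.5 and 43.7 to 59.4 CPM. Nkg7 carried that sum (means of 109, 57.6 and 48.8 CPM), while Cd3e, Cd8a and Ncr1 had no count in any library. The libraries are bulk cultures, so fewer cells of a type and less RNA per cell cannot be told apart. The neutrophil, monocyte and megakaryocyte sums did not overlap between any of the 3 groups, whereas the stem and progenitor, mast cell and T cell and NK cell sums overlapped between CEBPA-first and CSF3R-first and the B cell sum was highest in CEBPA-first. The part of these markers in the differences of the SOCS genes was not tested.

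The first comparison asked how the feedback inhibitors differed when mutant CEBPA preceded mutant CSF3R rather than being absent (CEBPA-first against CSF3R-only). The groups also differed in mutant CSF3R itself, which was constitutive in CSF3R-only and induced from the other vector in CEBPA-first. The presence of mutant CEBPA and this second difference cannot be told apart here. Socs2 was 15.7-fold higher in CEBPA-first, while Socs3, Socs5 and Cish were each at least 2-fold lower. Socs1, Socs4, Socs6 and Socs7 were higher by smaller amounts. All 8 members passed the test at an adjusted p of 0.05 (quasi-likelihood test of edgeR, Benjamini-Hochberg adjustment over 15703 genes), 5 of them higher and 3 lower. This count has to be read against a background in which 72.0% of all genes tested passed, 35.4% higher and 36.6% lower. At the 2-fold threshold 4 members remained, 1 higher and 3 lower, against 27.0% of all genes (8.07% higher and 19.0% lower). The median absolute log2 fold change was 0.85 over the members and 0.59 over all genes.

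**Figure D1:**
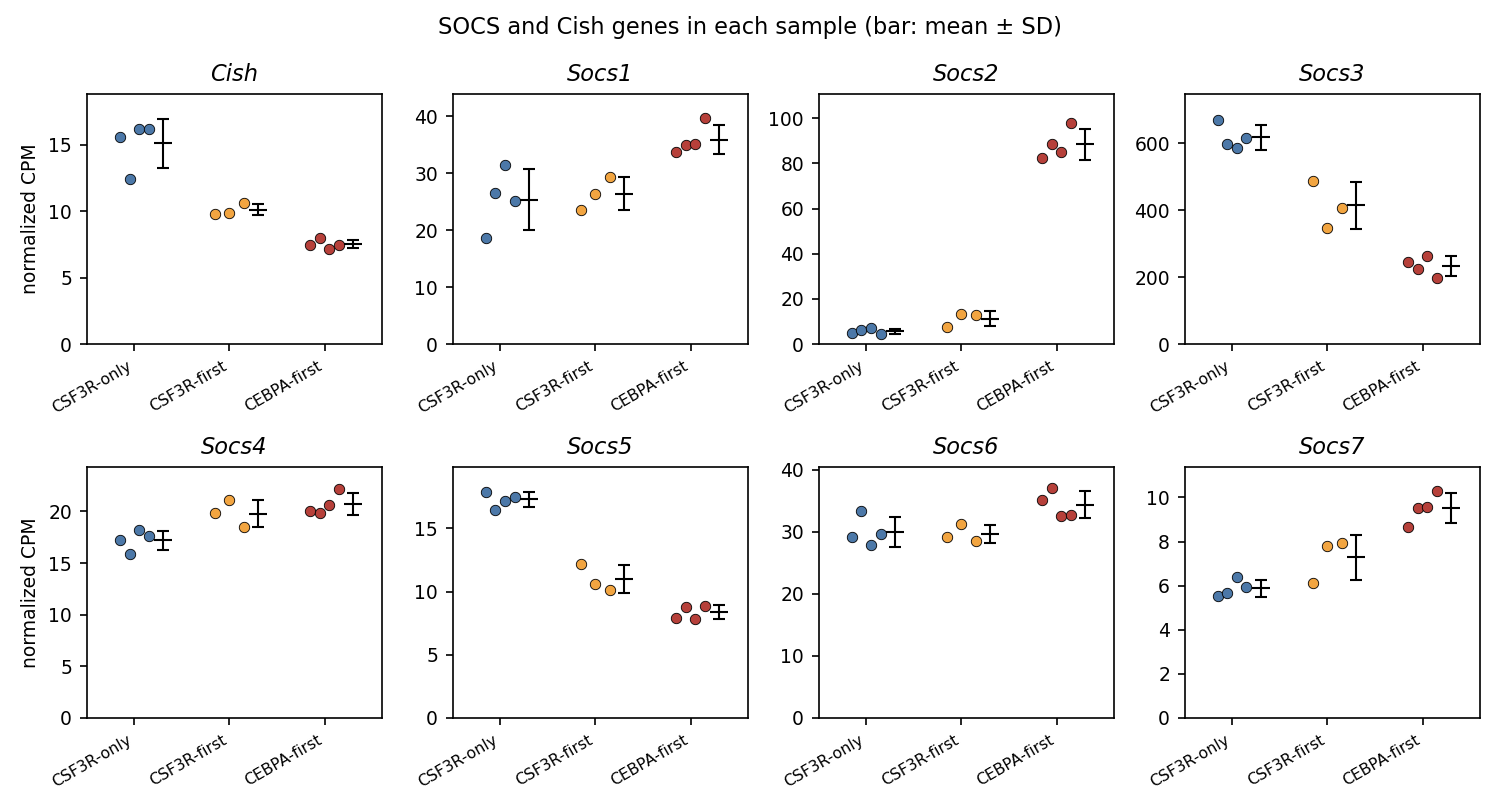
Normalized expression (CPM, vertical axis from 0) of the 8 genes in each sample of CSF3R-only (blue), CSF3R-first (orange) and CEBPA-first (red), with the group mean and SD as a bar beside the points. Socs2 sits at 82.5 to 98.1 CPM in CEBPA-first and at or below 13.5 CPM elsewhere, whereas Cish, Socs3 and Socs5 step down from CSF3R-only to CEBPA-first.

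Socs2, an inhibitor best known for limiting growth hormone and STAT5 signalling, was at 4.97, 6.07, 6.97 and 4.59 CPM in CSF3R-only replicates A to D. In CEBPA-first replicates A to D it was at 82.5, 88.8, 84.9 and 98.1 CPM. The lowest CEBPA-first sample was thus far above the highest CSF3R-only sample, and the groups did not overlap. The log2 fold change was 3.97 ± 0.18 (SE, edgeR adjusted p = 2e-09), the 88th highest of the 15703 genes tested. Leaving out any 1 sample moved this value only between 3.88 and 4.09.

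Socs3, the inhibitor that acts on the granulocyte colony-stimulating factor receptor itself, showed the opposite pattern. Its level was 669, 596, 586 and 616 CPM in CSF3R-only and 245, 224, 264 and 197 CPM in CEBPA-first. Every CEBPA-first sample was below every CSF3R-only sample. The gene fell 2.65-fold, with a log2 fold change of -1.41 ± 0.11 (SE, edgeR adjusted p = 1.7e-07). Csf3r, whose product SOCS3 binds, fell further, with a log2 fold change of -2.46 ± 0.13 (SE, edgeR adjusted p = 8.2e-09). The ratio of Socs3 to Csf3r counts was 0.679 to 0.765 in CSF3R-only samples and 1.47 to 1.58 in CEBPA-first samples. CSF3R-first samples, at 0.751 to 0.861, overlapped CSF3R-only and lay below CEBPA-first. Reads of the human vector may be part of the Csf3r counts. The sum of neutrophil maturation markers, 26900 to 33200 CPM in CSF3R-only and 6500 to 8650 CPM in CEBPA-first, was lower in the same samples, and its part in the Socs3 difference was not tested.

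Cish and Socs5 shared the direction of Socs3 at far lower levels. Cish, the founding member of the family and a classical STAT5 target, was at 15.6, 12.4, 16.2 and 16.2 CPM in CSF3R-only and at 7.48, 7.96, 7.16 and 7.46 CPM in CEBPA-first. CSF3R-only replicate B was the lowest of its group and still above all CEBPA-first samples. For Cish the log2 fold change was -1.01 ± 0.09 (SE, edgeR adjusted p = 7.8e-07). Socs5, which has been linked to interleukin-4 and epidermal growth factor receptor signalling, was at 17.9, 16.5, 17.2 and 17.5 CPM in CSF3R-only. In CEBPA-first it was at 7.94, 8.78, 7.81 and 8.85 CPM. No sample of either group reached the other, and the gene had a log2 fold change of -1.05 ± 0.08 (SE, edgeR adjusted p = 1.6e-07). Both genes lie close to the 2-fold threshold, and without the filter on low counts their log2 fold changes were -0.93 (Cish) and -0.97 (Socs5), which leaves 2 members past it.

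Socs1, a direct inhibitor of JAK kinases, was the second most expressed member per kilobase of annotated exon in every group and was higher in CEBPA-first. Its values were 18.6, 26.5, 31.5 and 25.1 CPM in CSF3R-only and 33.8, 35.0, 35.2 and 39.7 CPM in CEBPA-first. CSF3R-only replicate A was the lowest sample and replicate C came nearest to the CEBPA-first group without reaching it. The log2 fold change was 0.50 ± 0.13 (SE, edgeR adjusted p = 0.0035). Socs7, which has been reported to bind adaptor proteins and cytoskeletal partners as well as signalling proteins, was at 5.51, 5.65, 6.39 and 5.92 CPM in CSF3R-only and at 8.66, 9.51, 9.58 and 10.3 CPM in CEBPA-first. These groups did not overlap either, and the log2 fold change was 0.70 ± 0.10 (SE, edgeR adjusted p = 4.1e-05).

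Socs4 and Socs6 changed least. Socs4, a close relative of Socs5 in sequence, was at 17.2, 15.9, 18.2 and 17.6 CPM in CSF3R-only and at 20.0, 19.9, 20.6 and 22.2 CPM in CEBPA-first, a log2 fold change of 0.26 ± 0.07 (SE, edgeR adjusted p = 0.004) with no overlap between the groups. Socs6 (chr18:88665224-88927481, minus strand), which can act on the KIT and FLT3 receptors, was at 29.1, 33.4, 27.9 and 29.6 CPM in CSF3R-only and at 35.2, 37.0, 32.5 and 32.7 CPM in CEBPA-first. CSF3R-only replicate B lay above CEBPA-first replicates C and D, so the groups overlapped. The fitted Socs6 difference was a log2 fold change of 0.19 ± 0.07 (SE, edgeR adjusted p = 0.025). This call did not survive the loss of a single sample in 5 cases, namely CSF3R-only replicate A (adjusted p = 0.062), C (0.083) or D (0.059) and CEBPA-first replicate A (0.060) or B (0.077). In all, 7 of the 8 members had non-overlapping groups, against 68.7% of all genes tested.

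**Figure D2:**
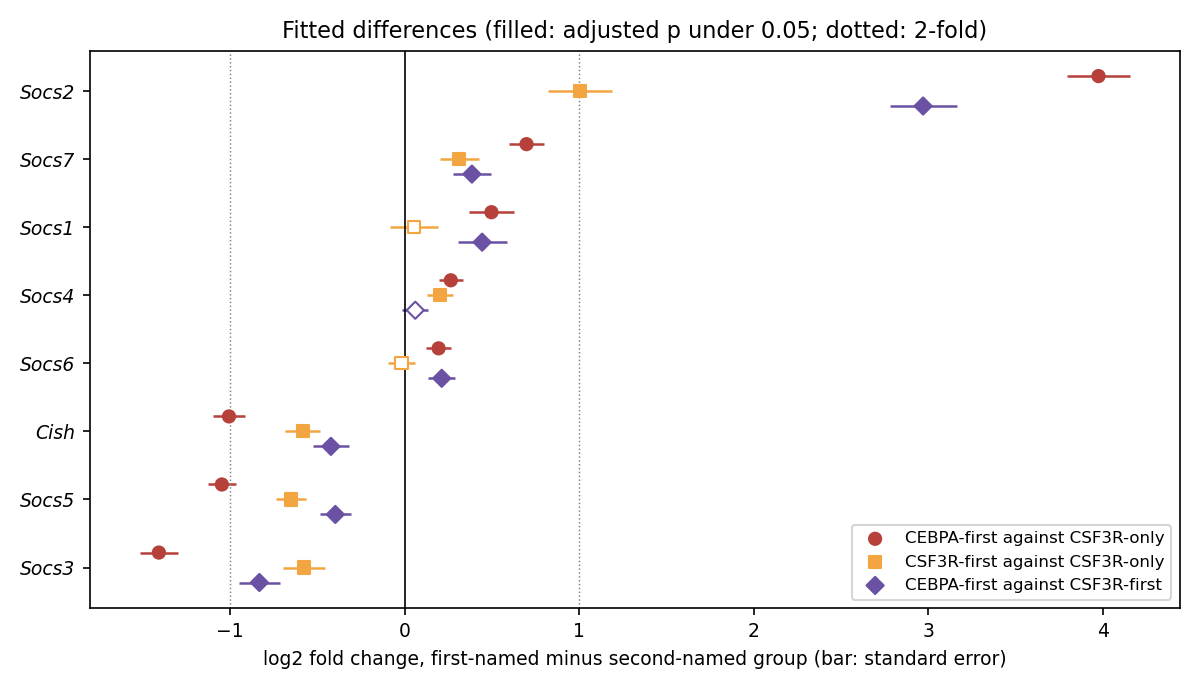
Fitted log2 fold change (horizontal axis, first-named group minus second-named) with its standard error for each gene in CEBPA-first against CSF3R-only (circles), CSF3R-first against CSF3R-only (squares) and CEBPA-first against CSF3R-first (diamonds). Filled symbols passed an adjusted p of 0.05 and dotted lines mark a 2-fold difference, which Socs2 alone reached upward.

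The second comparison asked what differed when mutant CEBPA was added after mutant CSF3R (CSF3R-first against CSF3R-only). It shares the CSF3R-only samples with the first, and its values are therefore given beside those above and not as separate support for them. Differences were smaller. Socs2 was 2.01-fold higher, Socs3, Cish and Socs5 were lower, and Socs1 and Socs6 showed no difference that passed the test. Of the 8 members 6 passed (3 higher and 3 lower), with 42.7% of all genes passing (21.6% higher and 21.1% lower). The median absolute log2 fold change was 0.44 over the members and 0.308 over all genes.

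Socs2 was at 7.47, 13.5 and 12.9 CPM in CSF3R-first replicates A to C. Replicate A stood lower than the other replicates and only just above the highest CSF3R-only sample at 6.97 CPM. The log2 fold change was 1.0 ± 0.18 (SE, edgeR adjusted p = 0.0012). This made Socs2 the one member at the 2-fold threshold, which 6.65% of all genes passed (2.13% higher), but its value moved from 0.86 to 1.23 as single samples were left out and fell under the threshold without CSF3R-only replicate A or D or CSF3R-first replicate B or C. It passed the adjusted p of 0.05 in every one of those fits.

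Socs3 was at 488, 348 and 406 CPM in CSF3R-first, with replicate A again nearest to CSF3R-only. It fell by 0.58 ± 0.12 on the log2 scale (SE, edgeR adjusted p = 0.0022). Replicate A also had the highest sum of neutrophil maturation markers of its group, 25600 CPM against 14700 in B and 17700 in C, and the part of those markers in the Socs3 and Socs2 values was not tested. Cish was at 9.80, 9.84 and 10.6 CPM, all below the CSF3R-only samples, and fell by 0.58 ± 0.10 on the log2 scale (SE, edgeR adjusted p = 0.00084). Socs5 was at 12.2, 10.6 and 10.1 CPM and fell by 0.65 ± 0.09 on the log2 scale (SE, edgeR adjusted p = 0.00017). For both genes the 3 CSF3R-first samples lay between the other groups without touching either.

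Socs1 was at 23.5, 26.4 and 29.3 CPM in CSF3R-first, inside the CSF3R-only range of 18.6 to 31.5 CPM. Its log2 fold change was 0.05 (95% interval -0.22 to 0.33, edgeR adjusted p = 0.79). Socs6 was at 29.2, 31.3 and 28.5 CPM, also inside the CSF3R-only range, with a log2 fold change of -0.02 (95% interval -0.17 to 0.13, edgeR adjusted p = 0.87). The sign of either value depended on single samples. For Socs6 in CEBPA-first against CSF3R-only the 95% interval was 0.06 to 0.33, which overlaps the interval given here. Socs4 was at 19.9, 21.1 and 18.5 CPM, all above the CSF3R-only samples, with a log2 fold change of 0.20 ± 0.08 (SE, edgeR adjusted p = 0.044). Socs7 was at 6.11, 7.81 and 7.93 CPM, and its replicate A fell inside the CSF3R-only range while B and C lay above it. The fitted Socs7 difference was a log2 fold change of 0.31 ± 0.11 (SE, edgeR adjusted p = 0.038). The Socs4 call was lost in 12 of 18 alternative fits (adjusted p 0.03 to 0.17) and the Socs7 call in 8 of 18 (0.0042 to 0.14), including fits without CSF3R-only replicate A, B or D and CSF3R-first replicate B for both, CSF3R-first replicate A and CEBPA-first replicates A to C for Socs4, and CSF3R-first replicate C and CEBPA-first replicates B and C for Socs7. Groups of 5 members did not overlap, against 42.1% of all genes.

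The third comparison concerned the order of the mutations (CEBPA-first against CSF3R-first), since both groups carried both mutant genes at the time of harvest. The groups also swapped which mutant gene was constitutive and which was induced during the 48 h with 4-hydroxytamoxifen. Order therefore cannot be told apart from the vector used or from how long each mutant gene was expressed. Socs2 was 7.83-fold higher in CEBPA-first and the other differences were under 2-fold. Of the 8 members 7 passed (4 higher and 3 lower), against 48.3% of all genes (24.0% higher and 24.3% lower). Socs2 was the only member at the 2-fold threshold, which 12.8% of all genes passed (2.57% higher). The median absolute log2 fold change was 0.41 over the members and 0.314 over all genes.

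The lowest CEBPA-first sample had 82.5 CPM of Socs2 and the highest CSF3R-first sample 13.5 CPM. The log2 fold change of 2.97 ± 0.19 (SE, edgeR adjusted p = 3.1e-07) was the 54th highest of all genes tested and stayed between 2.75 and 3.12 in every alternative fit. Socs3 was lower in CEBPA-first, with a log2 fold change of -0.83 ± 0.12 (SE, edgeR adjusted p = 0.00013) and 264 CPM in its highest sample against 348 CPM in the lowest of CSF3R-first. Cish was lower as well (log2 fold change -0.42 ± 0.10 SE, edgeR adjusted p = 0.0045), and so was Socs5 (-0.40 ± 0.09 SE, edgeR adjusted p = 0.0027). Socs1, for which CSF3R-first had not differed detectably from CSF3R-only, was higher in CEBPA-first by a log2 fold change of 0.44 ± 0.14 (SE, edgeR adjusted p = 0.019), a call that was lost without CSF3R-first replicate A (0.37, adjusted p = 0.068; 0.0036 to 0.068 over all alternatives). Socs7 was higher by 0.39 ± 0.11 (edgeR adjusted p = 0.012).

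Socs6 was higher by 0.21 ± 0.08 on the log2 scale (SE, edgeR adjusted p = 0.036), with its lowest CEBPA-first sample at 32.5 CPM and its highest CSF3R-first sample at 31.3 CPM. The Socs6 call was lost in 7 of 18 alternative fits (adjusted p 0.012 to 0.12), 5 of them without 1 sample (CSF3R-only D, CEBPA-first A or B, CSF3R-first A or C). For Socs4 the difference was 0.06 (95% interval -0.09 to 0.21, edgeR adjusted p = 0.53) and the groups overlapped. Of the 8 members 7 had groups that did not overlap, against 52.2% of all genes.

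The CSF3R-first mean was placed on a scale from 0 at the CSF3R-only mean to 1 at the CEBPA-first mean (log2 CPM). For genes past the 2-fold threshold between these outer groups, the median position was 0.427, with quartiles of 0.313 and 0.542 (4244 genes). Socs3, at 0.416, lay near that median. Cish at 0.578 and Socs5 at 0.622 lay nearer to CEBPA-first than the upper quartile. Socs2 at 0.243 lay nearer to CSF3R-only than the lower quartile. By replicate, Socs2 was at 0.105 in A, 0.319 in B and 0.303 in C, and Socs3 at 0.237, 0.584 and 0.427. Both genes had their lowest position in replicate A, as had Socs1 (-0.169, 0.147 and 0.439), Socs5 (0.472, 0.664 and 0.732) and Socs7 (0.087, 0.594 and 0.627). Replicate C was lowest instead for Cish (0.615, 0.609 and 0.508), Socs4 (0.789, 1.119 and 0.4) and Socs6 (-0.196, 0.317 and -0.356). These positions are a description of 3 samples, with no test.

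Levels between members were compared per kilobase of exon (CPM per kb). Socs3 dominated the family in every group, with 213 ± 12.8 CPM per kb in the CSF3R-only samples, 143 ± 24.4 with CEBPA added second and 80.5 ± 9.88 with CEBPA first. It made up 91.3% ± 1.19, 87.5% ± 2.38 and 71.7% ± 3.66 of the family's summed level (SD, n = 4, 3 and 4). Socs1 came second in all groups, at 8.75 ± 1.82, 9.07 ± 0.990 and 12.3 ± 0.884 CPM per kb. Its share of the family sum was 3.77%, 5.66% and 11.1%, which reflects both its own level and the lower Socs3 level in the denominator. By exon length Socs2 was the lowest member in CSF3R-only at 0.593 ± 0.114 CPM per kb and the third highest in CEBPA-first at 9.30 ± 0.719 CPM per kb, moving from 0.255% to 8.37% of the sum.

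The remaining members formed a low group in which neighbours often did not differ beyond their spread. In CSF3R-only the order after Socs1 was Socs5, Socs6, Socs4 and Cish (2.69, 2.65, 2.51 and 2.35 CPM per kb), each overlapping the next, followed by Socs7 at 0.808 CPM per kb. In CSF3R-first, Socs4 and Socs6 overlapped (2.89 and 2.61 CPM per kb), as did Socs5 and Cish (1.72 and 1.57) and Socs2 and Socs7 (1.18 and 1.0). In CEBPA-first, Socs6 and Socs4 overlapped (3.03 and 3.01 CPM per kb), and so did Socs7, Socs5 and Cish (1.31, 1.30 and 1.17). Dividing by the longest transcript instead of all annotated exons, a choice made after the data were seen, put Socs2 above Socs1 in CEBPA-first (20.9 against 12.3 CPM per kb). It gave Socs3 91.1 CPM per kb in CEBPA-first and lowered its share of the family sum there to 65.9%. On that scale Socs2 made up 15.2% of the family sum in CEBPA-first and 0.502% in CSF3R-only, where Socs7 was the lowest member (0.836 CPM per kb) and Socs2 next (1.33). The place of Socs2 among the members thus depends on the length used, while its difference between groups does not.

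**Figure D3:**
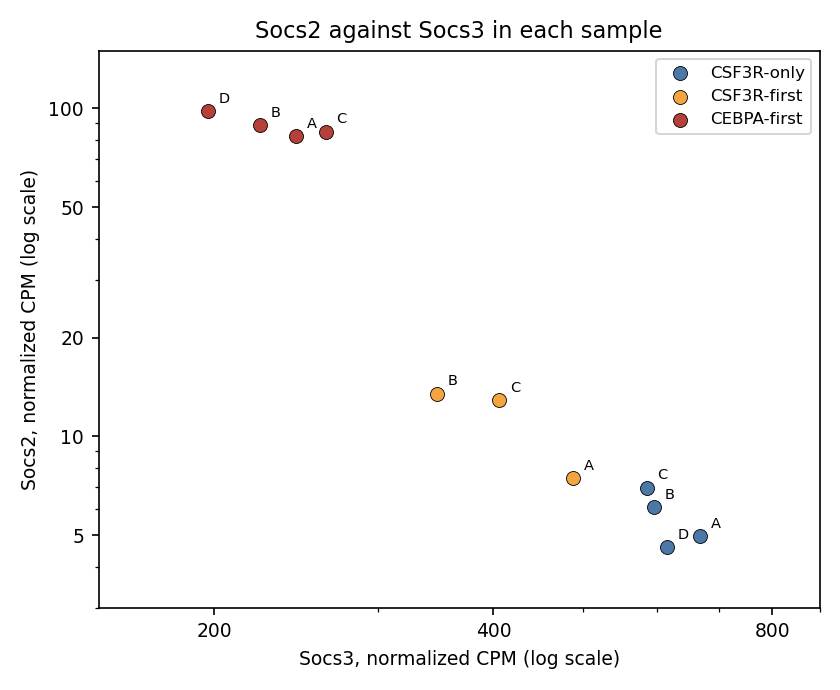
Socs2 (vertical) against Socs3 (horizontal) in each sample, both in normalized CPM on log axes, with letters marking replicates. The CSF3R-only samples lie at the lower right, the CEBPA-first samples at the upper left and the CSF3R-first samples between them, replicate A nearest to CSF3R-only.

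The balance of Socs3 to Socs2 condenses the contrast between the groups. In counts of the same library, Socs3 exceeded Socs2 by 84.1 to 135 times in CSF3R-only samples. The excess was 25.8 to 65.4 times in CSF3R-first samples and 2.01 to 3.11 times in CEBPA-first samples, with no overlap between groups. Each gene alone already separated all groups, in opposite directions, so the ratio had to separate them and adds no support. The count ratio of Socs3 to Cish moved far less, with ranges of 36.1 to 48.3, 35.3 to 49.8 and 26.5 to 36.9 in these groups. That of Socs3 to Socs1 was 18.6 to 35.9, 13.2 to 20.8 and 4.98 to 7.51, with CEBPA-first below both other groups. Across the 11 samples the correlation of log2 CPM was -0.973 for Socs2 and Socs3, and it was -0.768 after the group means were removed. Socs2 and Socs7 correlated at 0.949 across samples and at 0.845 within groups, while Socs3 and Cish, at 0.927 across samples, were at -0.04 within groups. These correlations share the libraries, their depth and the 3 groups and are given as a description. CSF3R-first replicate A had the lowest Socs2 (7.47 CPM) and Socs7 (6.11 CPM) and the highest Socs3 (488 CPM) of its group. The values within groups lean on that library and were not computed without it.

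The transcripts of the rest of the pathway gave the setting. The lists held 77 genes in the table, of which 76 were tested. In CEBPA-first against CSF3R-only 12 rose and 54 fell, where 35.4% of all genes rose and 36.6% fell. In CSF3R-first against CSF3R-only 8 rose and 47 fell, and in CEBPA-first against CSF3R-first 10 rose and 46 fell. Of all genes 21.6% rose and 21.1% fell in the second comparison, and 24.0% rose and 24.3% fell in the third. Their median log2 fold changes were -0.69, -0.36 and -0.34, and those of all genes were close to 0 (-0.00446, -0.0218 and 0.000524). The members' own medians were 0.23, 0.02 and 0.14.

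Among receptors that signal through JAKs, 17 of 22 tested fell and 1 rose in CEBPA-first against CSF3R-only (36.6% and 35.4% of all genes). In CSF3R-first against CSF3R-only 15 fell and 1 rose (21.1% and 21.6% of all genes), and in CEBPA-first against CSF3R-first 15 fell and 1 rose (24.3% and 24.0%). Among those that fell were Lifr (log2 fold change -2.86, edgeR adjusted p = 1.4e-09), Csf3r and Il7r (-2.42, edgeR adjusted p = 4.6e-09). The exception was Il6st, which encodes gp130, the shared signalling receptor of the interleukin-6 family to which SOCS3 can bind. It was measured at 97.6, 100, 88.8 and 103 CPM in CSF3R-only, at 173, 169 and 158 CPM in CSF3R-first and at 300, 300, 278 and 238 CPM in CEBPA-first. No sample of one group reached another group. Il6st rose by a log2 fold change of 0.78 in CSF3R-first against CSF3R-only (edgeR adjusted p = 3.8e-05).

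Of the 11 JAK and STAT genes 10 fell in CEBPA-first against CSF3R-only and none rose, where 36.6% of all genes fell. Among them were Stat4 (-1.99), Stat6 (-1.01) and Jak1 (-0.68, all log2 fold changes, edgeR adjusted p = 6.2e-07, 3.3e-06 and 3.4e-06). Stat5a was the gene that did not pass, at 77.8 ± 3.09 CPM in CSF3R-only (SD, n = 4) and 75.5 ± 2.33 in CEBPA-first (SD, n = 4), with a log2 fold change of -0.04 (edgeR adjusted p = 0.46). In CSF3R-first against CSF3R-only 9 of these genes fell, and in CEBPA-first against CSF3R-first 9 fell (21.1% and 24.3% of all genes).

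Genes on the list of other inhibitors, which also held regulators of ERK signalling such as Dusp6, fell more often than they rose. Of 16 tested, 10 fell and 2 rose in CEBPA-first against CSF3R-only, 9 fell and 1 rose in CSF3R-first against CSF3R-only, and 7 fell and 3 rose in CEBPA-first against CSF3R-first, where 36.6%, 21.1% and 24.3% of all genes fell. Dusp6, a phosphatase that inactivates ERK, fell in all of these, with log2 fold changes of -2.85, -1.06 and -1.79 (edgeR adjusted p = 3.1e-08, 0.00091 and 1.2e-05). In CEBPA-first against CSF3R-only the log2 fold change was -1.41 for Ptpn1, a phosphatase of JAK2 and TYK2, -1.02 for Pias3, an inhibitor of STAT3, and -0.96 for Ptpn6, which encodes the phosphatase SHP-1 (edgeR adjusted p = 1.2e-07, 1.7e-07 and 1.9e-06).

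Of 6 subunits of the ubiquitin ligases related to the SOCS box, 5 rose and none fell in CEBPA-first against CSF3R-only, all by less than 2-fold, where 35.4% of all genes rose. Cul2 rose by 0.58, Cul5, the cullin of the SOCS box ligase, by 0.48, Rnf7, its RING subunit, by 0.43 and Rbx1 by 0.21 (log2 fold changes; edgeR adjusted p = 4.6e-06, 0.00011, 0.00029 and 0.0078). In CSF3R-first against CSF3R-only 3 rose, with 21.6% of all genes. In CEBPA-first against CSF3R-first Cul2 and Cul5 rose by 0.37 and 0.31, and Elob, which encodes elongin B, fell by 0.20 (log2 scale, edgeR adjusted p = 0.0013, 0.0094 and 0.043). Of all genes 24.0% rose and 24.3% fell there.

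Other STAT target genes also fell more often than they rose. Of 22 tested, 17 fell and 4 rose in CEBPA-first against CSF3R-only (36.6% and 35.4% of all genes). The log2 fold change was -2.43 for Bcl6, a transcriptional repressor, -2.21 for Cd274, which encodes the immune checkpoint ligand PD-L1, and -1.61 for Fos (edgeR adjusted p = 1.4e-07, 5e-11 and 4e-05). Ccnd2, which encodes cyclin D2, was at 25.9 ± 5.29 CPM in CSF3R-only (SD, n = 4), 32.7 ± 6.18 in CSF3R-first (SD, n = 3) and 81.2 ± 4.53 in CEBPA-first (SD, n = 4), and rose by 1.65 on the log2 scale between the outer groups (edgeR adjusted p = 3.5e-07). Myc rose in CSF3R-first against CSF3R-only, by a log2 fold change of 0.84 (edgeR adjusted p = 0.00044). In CSF3R-first against CSF3R-only 14 of these genes fell and 3 rose (21.1% and 21.6% of all genes), and in CEBPA-first against CSF3R-first 14 fell and 4 rose (24.3% and 24.0%).

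**Figure D4:**
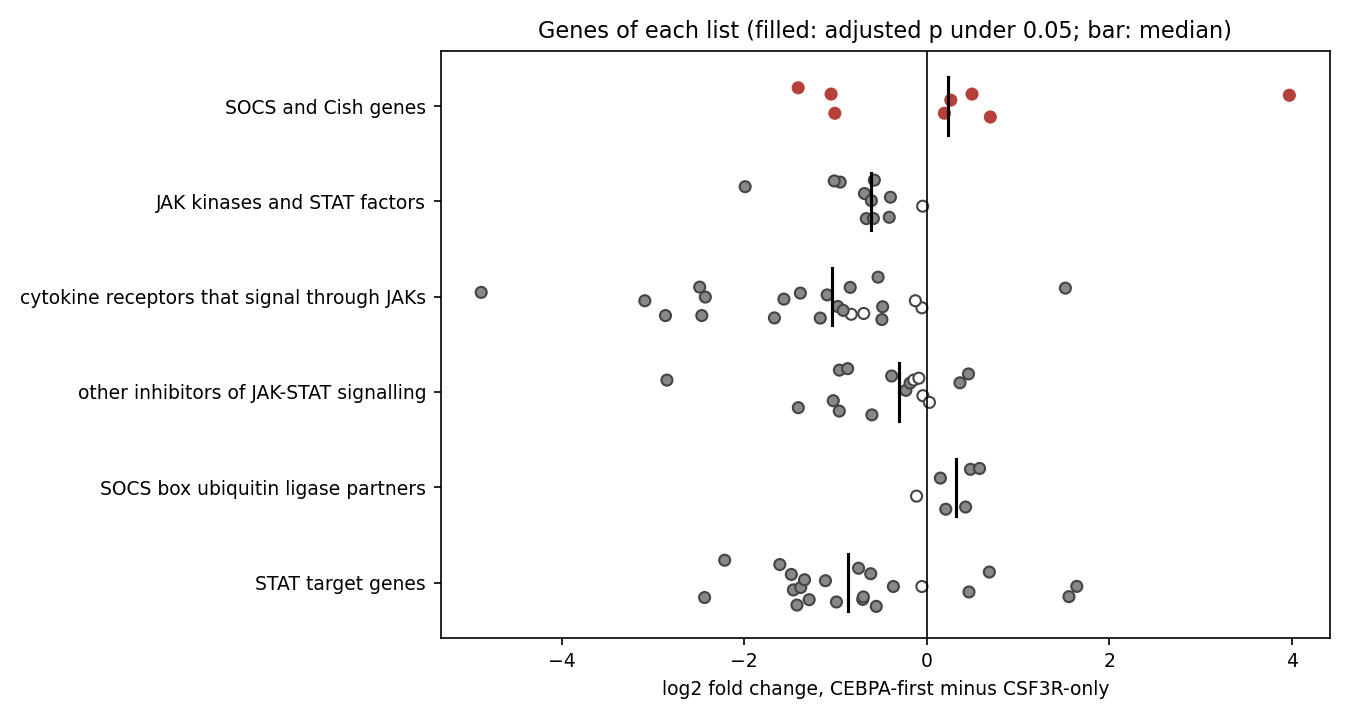
Log2 fold change in CEBPA-first against CSF3R-only (horizontal axis) of every tested gene of the SOCS family and of 5 pathway lists, with the list median as a bar and filled points for an adjusted p under 0.05. Receptors, JAK and STAT genes and STAT targets lie mostly left of 0, 5 of the 6 ubiquitin ligase partners right of 0, and the SOCS family spreads to both sides with Socs2 farthest right.

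For each member the genes with the most similar pattern over the 11 samples were taken from the other genes whose average log2 CPM was 3 or more (9151 for Socs7 and 9150 for the rest). The closest to Socs2 were Klhdc2 (Pearson r = 0.992), Nudt19 and Zdhhc8, and those to Socs3 were Fam214b (r = 0.999), Myadm and Pygl, the last encoding liver glycogen phosphorylase. Such patterns were common, since 2285 genes correlated with Socs2 above 0.9 and 2207 with Socs3. Cish was closest to Ell2 (r = 0.988), St3gal1 and Arap3, and Socs5 to Gclm (r = 0.995), Rap1gap2 and Rflnb. Socs7 was closest to Ydjc (r = 0.992), Epop and Pfas. The patterns of Socs1, Socs4 and Socs6 were rarer, with 88, 17 and 27 genes above 0.9, led by Nme4 (r = 0.965), Mdn1 (r = 0.952) and Sar1a (r = 0.972). The correlations rest on 3 groups of samples and say nothing of shared function or control.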

How the data were processed

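Whole-number counts per gene of 11 RNA-seq libraries were analysed. Trimming (Trimmomatic) and alignment (STAR, mm10 per the labels) were done by the authors, who deposited raw counts without normalization. The counting tool, annotation and strand setting are not given in the sources used here. Counts were normalized with TMM and filtered with filterByExpr, and the 3 groups were fitted together with edgeR 4.0.16 (R 4.3.3) by the quasi-likelihood test without covariates, with Benjamini-Hochberg adjustment over the 15703 genes left. The 3 pairwise comparisons were made. A gene passed at an adjusted p under 0.05, and a 2-fold difference was counted separately. CPM used TMM library sizes, and a prior count of 2 was added for log2 values. The 279 identifiers without a symbol remained in the fit. Positions come from GENCODE vM21 (GRCm38), near-identical stretches from BLAST 2.17.0 and promoters from RefSeq. The smallest amount called detectable, 3 counts, covers counting error only and was 0.0383 to 0.06479 CPM.

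The members and gene lists were chosen with earlier results of these data known. In each pathway list and comparison, up to 4 genes that passed with the largest changes among those with an average log2 CPM of 3 or more were named by rule, with Csf3r, Cebpa and the 3 genes most similar to each member. Some genes that this rule takes are not reported here. Stat5a, Il6st in all groups and individual cell type markers were picked after their values were seen. Alternatives were DESeq2 1.42.0, other normalizations and filters, only the compared groups, a replicate block and leaving out each sample. The procedure was tested on simulated data.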

Additional observations from a re-analysis of the deposited data

How the results depend on the processing

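Over 18 alternative fits (DESeq2, other scalings and filters, only the groups compared, a replicate block and each sample left out), 394 of 432 fitted values of the members kept their direction and their side of the threshold, 33 lost the call and 5 changed sign. Every call of Socs2, Socs3, Cish and Socs5 in the 3 comparisons was kept. The sign changes concerned values near 0 in CSF3R-first against CSF3R-only: Socs1 was -0.07 without CSF3R-only replicate A and -0.01 without CSF3R-first replicate C (-0.07 to 0.17 over single samples left out), and Socs6 was 0.03 without the low-count filter, 0.03 without CSF3R-only replicate B and 0.03 without CSF3R-first replicate C (-0.06 to 0.03). The number of members past 2-fold in CEBPA-first against CSF3R-only was 4, 3 with DESeq2, 3 with the replicate block, 2 without the low-count filter and 3 to 4 with single samples left out. In CSF3R-first against CSF3R-only it was 1, 0 under a filter of 10 counts per sample, 0 with the replicate block and 0 to 1 with single samples left out.

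Replicate letters are shared between groups. Deviations of the 10 same-letter pairs of samples correlated at -0.107 to 0.362, 7 of them above 0.1, and those of the 30 different-letter pairs at -0.341 to 0.384, 5 of them above 0.1. The letters were to be taken as pairing the samples only if every same-letter pair was above 0.1, which was not met, and 6 of the 11 samples correlated best with a sample of their own letter, a hint from the data and not from the design. With the letter as a replicate block the passing members were 8, 6 and 7 in the 3 comparisons, as without it. Leaving out single samples gave 7 to 8, 4 to 6 and 5 to 7. The pathway lists had 66, 55 and 56 passing genes, and 65 to 67, 41 to 60 and 50 to 58 with single samples left out (41 without CSF3R-first replicate C and 43 without B in the second comparison).

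The group of 3 samples limits these comparisons, and small differences such as those of Socs4 and Socs6 rest on few samples.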
